A study of Mus musculus with 4 samples.

Results

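Collagen chain genes encode the subunits of the collagens, and their expression was followed in a mouse mammary epithelial cell line, Comma D beta, sorted by the surface protein Sca1 and cultured with or without doxycycline (dox). The members were all genes whose symbol in the annotation of the array is Col, a number, the letter a and a number. That rule found 42 genes among the 18194 genes with a probe set of their own, and 26 of the 42 were high enough on at least 1 array to be analysed. There were 4 Affymetrix arrays, 1 for each group: untreated Sca1+ cells, untreated Sca1- cells, Sca1+ cells after dox and Sca1- cells after dox. Treated cells received 100 ng/ml dox for 1 day, all cells grew in medium with 2% serum, 5 µg/ml insulin and 10 ng/ml EGF, and the same number of cells was sorted for each fraction. Sca1 marks a fraction of mammary epithelial cells studied for repopulating ability, and the series concerns Bcl11b, a zinc finger transcription factor. The construct that dox controls is not described in the labels. Because the groups have 1 array each, no difference between 2 arrays has a replicate check, and because a cell line is a single source, nothing here speaks for mammary tissue.

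Collagens are triple helices of chains that each come from a separate gene, so the supply of a trimer depends on several genes at once. Fibrillar collagens (types I, II, III, V, XI, XXIV and XXVII) form banded fibrils, FACIT collagens sit on the surface of those fibrils, and type IV collagen forms the network of basement membranes. Type VII collagen ties the epithelial basement membrane to the stroma below, and type XVII collagen spans the plasma membrane of basal epithelial cells at hemidesmosomes. In the mammary gland, epithelial cells contribute to the basement membrane, while most of the interstitial type I and type III collagen comes from fibroblasts. Types II, IX, X and XI are known chiefly from cartilage, where types II, IX and XI share 1 fibril.

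Sequence around transcription starts is shown for 4 members that mark the main patterns, from RefSeq (GRCm38.p6), as 250 bases before and 50 bases after the annotated start. Col4a2 is shown because its start lies 21 bases from that of Col4a1, which is read in the opposite direction, and these genes differed little between the arrays. Col9a1, which differed most with Sca1, has 2 annotated starts. Col7a1 was lower and Col27a1 higher after dox. In Col4a2 the capitals mark the 78 bases that the window shares with that of Col4a1. In the other windows capitals mark matches on either strand to the TATA box letters TATAAA, the GC box letters GGGCGG, the SOX core ACAAT or the CCAAT box letters CCAAT.
Col4a2, chr8:11312555-11312854, plus strand: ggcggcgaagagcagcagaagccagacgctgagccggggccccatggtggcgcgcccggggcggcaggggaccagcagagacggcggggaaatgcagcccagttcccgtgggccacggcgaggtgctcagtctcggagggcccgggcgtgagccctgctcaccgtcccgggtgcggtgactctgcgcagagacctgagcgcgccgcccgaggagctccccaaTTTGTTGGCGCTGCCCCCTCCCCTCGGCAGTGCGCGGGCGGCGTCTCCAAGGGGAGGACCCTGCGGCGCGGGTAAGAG
Col9a1, chr1:24177360-24177659, plus strand: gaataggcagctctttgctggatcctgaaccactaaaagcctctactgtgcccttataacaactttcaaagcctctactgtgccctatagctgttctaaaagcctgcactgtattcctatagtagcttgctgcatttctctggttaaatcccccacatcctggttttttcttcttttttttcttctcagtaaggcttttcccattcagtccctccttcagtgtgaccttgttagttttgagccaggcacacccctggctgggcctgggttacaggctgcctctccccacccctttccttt
Col9a1, chr1:24194953-24195252, plus strand: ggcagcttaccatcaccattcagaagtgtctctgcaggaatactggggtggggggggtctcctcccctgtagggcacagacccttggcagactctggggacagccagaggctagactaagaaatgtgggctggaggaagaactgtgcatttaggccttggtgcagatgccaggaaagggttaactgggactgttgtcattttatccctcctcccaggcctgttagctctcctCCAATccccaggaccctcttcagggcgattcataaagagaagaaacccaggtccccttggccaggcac
Col7a1, chr9:108953336-108953635, plus strand: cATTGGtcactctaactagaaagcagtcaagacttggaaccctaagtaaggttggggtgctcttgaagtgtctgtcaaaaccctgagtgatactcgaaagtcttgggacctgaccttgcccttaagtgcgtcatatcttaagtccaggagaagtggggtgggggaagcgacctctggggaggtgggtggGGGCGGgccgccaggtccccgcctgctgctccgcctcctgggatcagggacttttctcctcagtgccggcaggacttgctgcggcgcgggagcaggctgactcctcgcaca
Col27a1, chr4:63215162-63215461, plus strand: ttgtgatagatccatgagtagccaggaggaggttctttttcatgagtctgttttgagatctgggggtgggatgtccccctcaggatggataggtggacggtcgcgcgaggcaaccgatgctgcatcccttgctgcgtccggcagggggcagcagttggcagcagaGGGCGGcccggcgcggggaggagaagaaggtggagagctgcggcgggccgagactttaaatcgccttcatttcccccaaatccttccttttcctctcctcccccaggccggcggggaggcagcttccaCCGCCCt
A window was found for 33 of the 42 members, 36 windows in all. GGGCGG occurred in 22 of the 36 member windows and in 35.7% of the 32851 windows of the same length in the table. TATAAA occurred in 5 of the 36 against 13.6% of all windows, and CCAAT in 13 of the 36 against 37.4%. ACAAT, a core that SOX proteins recognise, occurred in 1 of the 36, that of Col3a1, against 31.0% of all windows. The ACAAT and CCAAT letters end alike but neither holds the other, and a match is only a match of letters. The Col4a2 window is 73.7% G and C and the upstream Col9a1 window 47.3%, beside a median of 52.7% over all windows.

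The deposited values are log2 expression levels with a floor of 3.32, which is 10 on the linear scale, and between 44.8% and 48.0% of the probe sets lay at that floor on each array. A gene was analysed if its probe set reached the pooled median of 3.63 on at least 1 array, which left 12264 genes. Where 4 levels are given in a row, they run from untreated Sca1+ to untreated Sca1- cells and then through the same fractions after dox. A difference of 2-fold or more between 2 arrays is called a difference here. A fit with a dox term and a Sca1 term over the 4 arrays (limma, Benjamini-Hochberg adjustment over the 12264 genes) gave the only test. It leaves 1 residual degree of freedom a gene, counts any interaction as spread and treats the sorted fractions as separate samples. Bcl11b itself stood at 6.87 and 6.29 in untreated Sca1+ and Sca1- cells and at 12.11 and 11.99 after dox. No probe set was named for the Sca1 gene Ly6a, so the sort could not be checked on these arrays. All 8 mammary epithelial markers were analysed, with Epcam between 10.28 and 11.69 and Krt14 between 11.54 and 11.92. Krt5, a basal keratin, was lower after dox 15.9-fold in Sca1+ and 8.76-fold in Sca1- cells. Krt8, a luminal keratin, was lower by 1.73 and 1.96 on the log2 scale. Krt18, another luminal keratin, differed by 0.07 in Sca1+ and -0.79 in Sca1- cells, under 2-fold in both. The summed linear level of the 8 markers was 13217 and 15038 in untreated Sca1+ and Sca1- cells and 9447 and 11085 after dox. In such bulk samples fewer cells of a type and less RNA per cell cannot be told apart.

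Dox came with higher levels of some collagen genes and lower levels of others. In Sca1+ cells 7 of the 26 analysed members were higher after dox, beside 8.47% of all genes, and 9 were lower, beside 12.9%. In Sca1- cells 5 were higher, beside 7.2% of all genes, and 7 were lower, beside 11.3%. In both fractions together, 5 members were 2-fold higher (Col5a2, Col27a1, Col6a1, Col20a1 and Col8a1), beside 5.29% of all genes, and 5 were 2-fold lower (Col16a1, Col7a1, Col9a3, Col2a1 and Col18a1), beside 8.56%. No member was 2-fold higher in 1 fraction and 2-fold lower in the other, but this was not counted over all genes, so it says nothing particular to collagens. The median difference over the 26 was -0.31 in Sca1+ and -0.33 in Sca1- cells, beside 0.03 and 0.02 over all genes. The fit called the dox term for 5 members higher, beside 11.9% of all genes, and for 10 lower, beside 14.8%. These counts cover only members that passed the filter on low values.

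**Figure D1:**
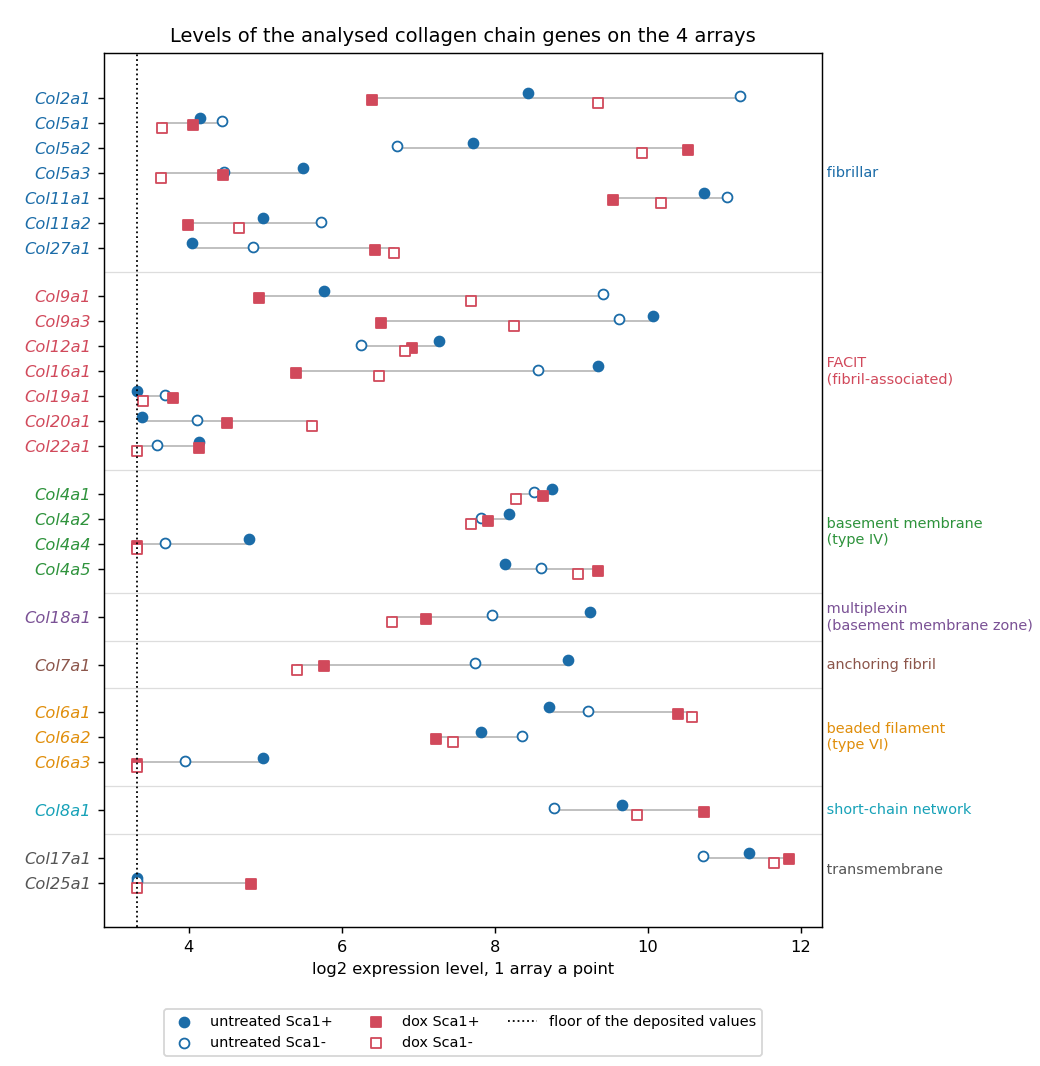
Log2 expression level of each analysed collagen chain gene (vertical axis, grouped and coloured by class) on the 4 arrays (horizontal axis), 1 array a point, with the floor of the deposited values as a dotted line. Col17a1 lies above 10.7 on every array, while Col4a4 and Col6a3 reach the floor on both dox arrays. Levels of different genes come from different probe sets and are not to be ranked.

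Of the fibrillar chains, 11 had a probe set and 7 were analysed. The chains of types I and III, the bulk of interstitial collagen, were not among them. Col3a1 and Col1a1 stayed below the filter, and so did Col1a2, whose highest level was 3.53. Among the 10 fibroblast markers with a probe set, Pdgfrb, Dpt, Pi16, Cd34 and Mfap5 were at the floor on all arrays, and the summed linear level of the list was 134 and 128 in untreated Sca1+ and Sca1- cells and 248 and 173 after dox, where 100 is the sum at the floor. Fbln1 was the 1 marker of that list 2-fold higher after dox in both fractions, from 5.13 to 7.13 in Sca1+ and from 3.66 to 5.98 in Sca1- cells. Pdgfra, another of the 4 analysed, stood at 4.24, 5.15, 4.12 and 4.45 and was not higher. Lum left the floor only on the dox arrays, at 3.62 in Sca1+ and 4.14 in Sca1- cells. Thy1 left it only on the dox Sca1+ array, at 4.08. Of 6 pericyte and smooth muscle markers, 4 were analysed and Myh11 and Kcnj8 were at the floor on all arrays. Their sum was 117 and 233 untreated and 273 and 190 after dox, where 60 is the sum at the floor. Rgs5, a pericyte marker, was the 1 gene of that list 2-fold higher in both fractions. It went from the floor to 7.38 in Sca1+ and 5.57 in Sca1- cells, at least 16.7-fold and 4.76-fold. Notch3 differed after dox by -0.04 in Sca1+ and -0.87 in Sca1- cells, and Des by 0.07 and -0.92. Cspg4 was at the floor on both Sca1+ arrays and differed by 0.40 in Sca1- cells. Endothelial markers summed to between 60 and 70.9, leukocyte markers to between 51.8 and 63.2, and adipocyte markers stayed at the floor. The part of such cells in the dox differences of the collagens was not tested.

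Col5a2 had the largest increase after dox of the analysed members. It encodes a chain of type V collagen, which joins type I fibrils and limits their diameter. Its level was 7.72 in untreated Sca1+ cells, 6.72 in untreated Sca1- cells, 10.53 in dox Sca1+ cells and 9.92 in dox Sca1- cells. Both dox arrays lay above both untreated arrays, 7.0-fold in Sca1+ and 9.20-fold in Sca1- cells, and the fitted difference was 3.0 ± 0.18 (SE; limma adjusted p = 0.00685). A second Col5a2 probe set gave 3.53 and 2.89. The other type V chains differed in other ways. Col5a1, which supplies most of the chains in the common type V trimer, stood at 4.15, 4.44, 4.06 and 3.65 in the same order of groups. It passed neither the size rule nor the test (limma adjusted p = 0.228). Its dox differences were -0.09 in Sca1+ and -0.79 in Sca1- cells, and a second Col5a1 probe set gave -0.80 and -0.90. Col5a3, a less common type V chain, stood at 5.50, 4.47, 4.45 and 3.63, with dox differences of -1.05 in Sca1+ and -0.83 in Sca1- cells (fitted -0.94 ± 0.17, limma adjusted p = 0.023). The dox arrays lay below the untreated arrays, but the dox Sca1+ array only just under the untreated Sca1- array.

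Col27a1 encodes a fibrillar chain with a short interrupted helix that is made in cartilage and also in epithelia. It stood at 4.04 and 4.84 in untreated Sca1+ and Sca1- cells and at 6.43 and 6.69 after dox. That was 5.24-fold and 3.59-fold higher with dox, and the dox arrays again lay above both untreated arrays (fitted 2.12 ± 0.20, limma adjusted p = 0.00878). The other Col27a1 probe set gave 1.51 in Sca1+ and 0.71 in Sca1- cells.

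The cartilage chains were 8 genes drawn from the fibrillar, FACIT and short-chain classes, of which Col10a1 and Col9a2 were not analysed. Of the 6 analysed, Col27a1 was 2-fold higher after dox in both fractions, beside 5.29% of all genes. Col2a1 and Col9a3 were 2-fold lower in both, beside 8.56%. The median dox difference of the 6 was -1.09 in Sca1+ and -1.22 in Sca1- cells.

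Col2a1 encodes the only chain of type II collagen, the main fibril of cartilage. Its levels were 8.43 in untreated Sca1+ cells, 11.20 in untreated Sca1- cells, 6.40 in dox Sca1+ cells and 9.34 in dox Sca1- cells. After dox the level was 4.09-fold lower in Sca1+ and 3.62-fold lower in Sca1- cells (fitted -1.94 ± 0.16, limma adjusted p = 0.00776). The dox and untreated arrays overlap, because the dox Sca1- array lies above the untreated Sca1+ array.

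Col9a1 and Col9a3 encode chains of type IX collagen, which decorates type II fibrils. Col9a1 stood at 5.77 and 9.41 in untreated Sca1+ and Sca1- cells and at 4.92 and 7.69 after dox, with dox differences of -0.84 and -1.73 (fitted -1.29 ± 0.26, limma adjusted p = 0.0323). A second Col9a1 probe set gave -0.99 and -0.70, both under 2-fold. For Col9a1 too the dox Sca1- array lay above the untreated Sca1+ array. Col9a3 stood at 10.06, 9.63, 6.51 and 8.25. Dox was therefore accompanied by an 11.7-fold lower Col9a3 level in Sca1+ cells and a 2.60-fold lower level in Sca1- cells (fitted -2.46 ± 0.54, limma adjusted p = 0.0379), and both dox arrays lay below both untreated arrays. The second Col9a3 probe set gave -3.78 and -1.45. In Sca1- cells the Col9a3 difference was -0.99, under the size rule, when all its probe sets were averaged.

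Col11a1 and Col11a2 encode chains of type XI collagen, which lies inside cartilage fibrils beside a product of Col2a1. Col11a1 stood at 10.74, 11.03, 9.54 and 10.17 in the order given, and Col11a2 at 4.97, 5.72, 3.99 and 4.66. The differences with dox were -1.20 and -0.86 for Col11a1 and -0.98 and -1.07 for Col11a2, each passing 2-fold in 1 fraction only. The fit called both, at -1.03 ± 0.18 (limma adjusted p = 0.0218) and -1.02 ± 0.16 (limma adjusted p = 0.0178). Both dox arrays lay below both untreated arrays for each gene.

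Genes that build or regulate cartilage were listed beside them, 15 in all, of which 7 were analysed. Matn4, a matrix adaptor protein, was the 1 gene 2-fold lower after dox in both fractions, beside 8.56% of all genes, and 0 were higher, beside 5.29%. It stood at 7.80 and 8.27 in untreated and 5.41 and 6.35 in dox Sca1+ and Sca1- cells. In Sca1- cells alone 3 of the 7 were lower, beside 11.3% of all genes, with Snorc at -1.81 and Cnmd at -1.77. Sox9, the transcription factor that activates Col2a1 in chondrocytes, stayed between 10.17 and 10.39, with dox differences of -0.05 and -0.08. Its partners Sox5 and Sox6 had dox differences between -0.60 and -0.11. Of 7 chondrocyte markers, Matn1, Matn3, Hapln1 and Comp were at the floor on all arrays. The summed linear level of that list was 88.5 and 235 in untreated Sca1+ and Sca1- cells and 75.2 and 105 after dox, where 70 is the sum at the floor. Its part in the differences of the cartilage collagens was not tested.

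Among the 4 analysed basement membrane chains of type IV, Col4a1 and Col4a2 differed little after dox, while Col4a5 was 2-fold higher and Col4a4 2-fold lower in Sca1+ cells. Col4a1 and Col4a2, which together form the common type IV trimer from the start region printed above, stood at 8.75, 8.51, 8.62 and 8.28 and at 8.19, 7.81, 7.91 and 7.69 in the order used above. Their dox differences lay between -0.27 and -0.12, and neither passed the test (limma adjusted p = 0.441 for Col4a1 and 0.406 for Col4a2). Col4a5, a chain of the trimers of kidney and of smooth muscle and skin basement membranes, stood at 8.13 and 8.60 untreated and at 9.35 and 9.09 after dox. It was higher 2.33-fold in the Sca1+ and 1.40-fold in the Sca1- fraction and missed the threshold of the test (fitted 0.85 ± 0.24, limma adjusted p = 0.0624). Col4a4, which pairs with Col4a3 and Col4a5, was at 4.79 and 3.69 untreated and at the floor on both dox arrays, at least 2.76-fold lower in Sca1+ cells. Col4a3 and Col4a6 were not analysed. Each type IV gene lies next to another type IV gene in the genome, and Col4a5 starts 1343 bases from Col4a6.

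Col18a1 and Col7a1, which belong to the basement membrane zone, were lower after dox in both fractions. Col18a1 encodes a heparan sulfate proteoglycan whose C-terminal fragment is endostatin, and it stood at 9.25 and 7.97 in untreated Sca1+ and Sca1- cells and at 7.10 and 6.66 after dox. That was 4.42-fold and 2.48-fold lower (fitted -1.73 ± 0.25, limma adjusted p = 0.016), and a second probe set gave -3.16 and -2.69. Col7a1 encodes the only chain of the anchoring fibrils. It stood at 8.96 and 7.74 untreated and at 5.77 and 5.42 after dox, 9.13-fold and 4.99-fold lower (fitted -2.75 ± 0.26, limma adjusted p = 0.00856). For both genes the dox arrays lay below the untreated arrays.

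Among 7 partners of type IV collagen, 5 were analysed. Lamb1, a laminin beta chain, was higher after dox, at 7.73 and 7.91 against 9.86 and 9.83. Lama5, a laminin alpha chain, was lower, at 5.71 and 5.75 against 3.81 and 4.15. Hspg2, which encodes perlecan, lay between 7.17 and 7.31 on the 4 arrays.

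The transmembrane chains had 4 genes with a probe set, of which Col17a1 and Col25a1 were analysed. Col17a1, the hemidesmosomal collagen, stood at 11.32 and 10.72 untreated and at 11.84 and 11.64 after dox in Sca1+ and Sca1- cells. The differences of 0.52 and 0.92 were under 2-fold and missed the threshold (fitted 0.72 ± 0.18, limma adjusted p = 0.053). Col25a1, known from neurons, left the floor on the dox Sca1+ array alone, at 4.81, at least 2.81-fold above the untreated Sca1+ array. Of 7 analysed hemidesmosome partners, Itgb4 (the integrin that binds laminin there), Lamb3 (a laminin chain) and Cd151 (a tetraspanin) were 2-fold lower after dox in both fractions, beside 8.56% of all genes, and 0 were higher, beside 5.29%. Itgb4 went from 9.40 to 7.38 in Sca1+ and from 9.12 to 7.69 in Sca1- cells, and Lamb3 from 10.04 to 7.07 and from 9.58 to 7.78. Itga6, the alpha partner of Itgb4, differed by 0.12 and 0.16.

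Type VI collagen forms beaded filaments from chains of Col6a1, Col6a2 and Col6a3, and these differed in direction. Col6a1 stood at 8.71 and 9.22 untreated and at 10.39 and 10.58 after dox, 3.21-fold and 2.57-fold higher in Sca1+ and Sca1- cells (fitted 1.52 ± 0.18, limma adjusted p = 0.011). Col6a2, its direct neighbour in the genome, stood at 7.82 and 8.35 untreated and at 7.23 and 7.45 after dox, with differences of -0.59 and -0.90 (fitted -0.74 ± 0.17, limma adjusted p = 0.0435). Another Col6a2 probe set gave -0.06 and -0.48. Col6a3, the longest of the 3 chains, was at 4.97 and 3.96 untreated and at the floor on both dox arrays, at least 3.13-fold lower in Sca1+ cells. For each gene the dox arrays lay on 1 side of the untreated arrays.

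**Figure D2:**
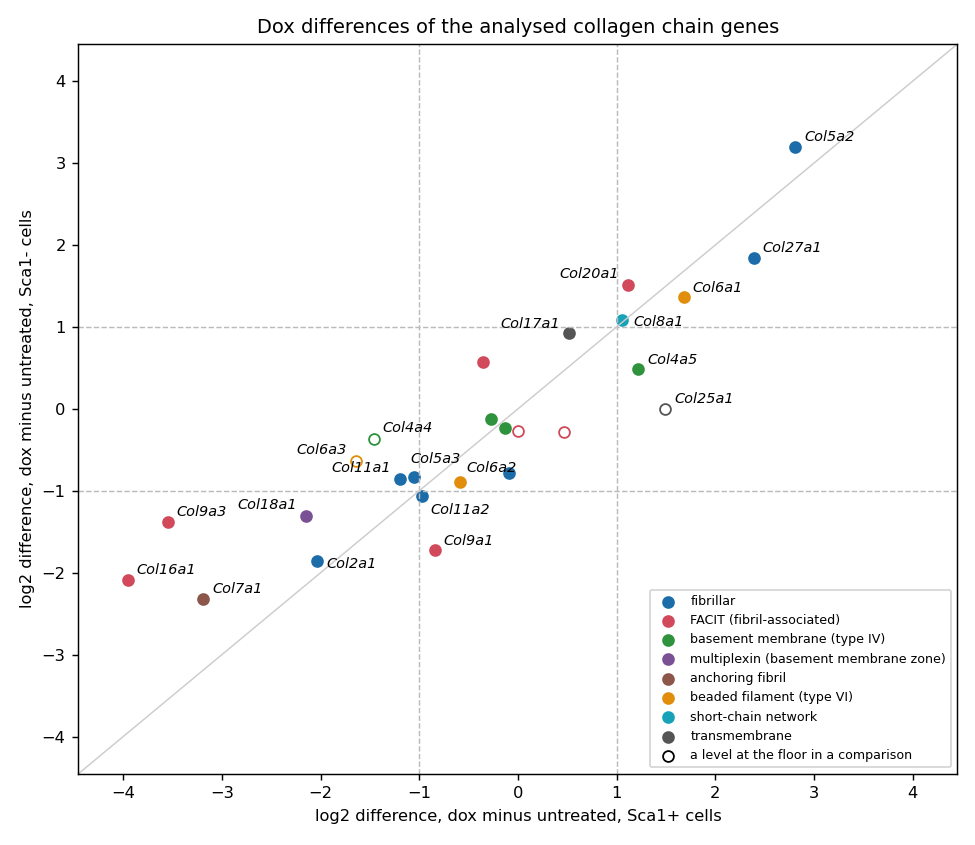
Log2 difference, dox minus untreated, in Sca1+ cells (horizontal axis) and in Sca1- cells (vertical axis) for each analysed collagen chain gene, coloured by class, with open symbols where a level was at the floor. Col5a2, Col27a1 and Col6a1 lie in the upper right corner, and Col16a1, Col7a1 and Col9a3 lie farthest to the left, below -3 in Sca1+ cells.

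The FACIT and related chains had 7 analysed members. Col16a1, a minor chain of fibril surfaces and of the zone below epithelia, had the largest decrease in Sca1+ cells. It stood at 9.35 and 8.57 in untreated Sca1+ and Sca1- cells and at 5.40 and 6.48 after dox, 15.5-fold and 4.24-fold lower (fitted -3.02 ± 0.47, limma adjusted p = 0.018). Col12a1, which links type I fibrils to other matrix, stood at 7.27, 6.25, 6.92 and 6.83 and was not called for dox (limma adjusted p = 0.774). Col20a1 stood at 3.39 and 4.11 untreated and 4.50 and 5.61 after dox, 2.17-fold and 2.84-fold higher (fitted 1.31 ± 0.18, limma adjusted p = 0.0146). The Col20a1 levels are low, and its other probe sets differed by 0.66 or less. With a floor of 32, which lies above both Sca1+ levels, its Sca1+ difference was 0. Col19a1 stood at the floor, 3.69, 3.79 and 3.40, and Col22a1 at 4.14, 3.59, 4.14 and the floor. Neither reached 2-fold in any comparison, but those that involve the floor give only a lower bound.

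Col8a1, a chain of the short-chain network collagen found under endothelium and in other matrices, stood at 9.67 and 8.77 untreated and 10.73 and 9.86 after dox. It was 2.08-fold and 2.12-fold higher (fitted 1.07 ± 0.16, limma adjusted p = 0.0161), with both dox arrays above both untreated arrays by little. With arrays centred on their medians the Sca1+ differences of Col20a1 and Col8a1 were 0.92 and 0.87, and with quantile normalization 0.99 and 0.98, so the members higher in both fractions were then 3. That centring also moved the median dox difference of all genes in Sca1+ cells from 0.03 to -0.16. The share of higher among all called genes moved with it from 39.7% to 27.3%.

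Between the sorted fractions, the differences were Sca1+ minus Sca1-. Without dox, 7 members were higher in Sca1+ cells, beside 3.07% of all genes, and 2 were lower, beside 3.33%. With dox, 1 was higher, beside 2.52%, and 5 were lower, beside 2.98%. No member was 2-fold higher under both conditions, beside 1.08% of all genes, and Col2a1 and Col9a1 were 2-fold lower under both, beside 0.881%. The fit called the Sca1 term for 0 members in either direction, where 0% and 0% of all genes passed. At an unadjusted p under 0.05 it gave 6 members higher and 4 lower, and 1679 genes in all. The smallest adjusted p of a member was 0.113, for Col2a1 and Col9a1. That call changed with the processing: with arrays centred on their medians limma called Col2a1 (adjusted p = 0.000806) and Col9a1 (0.000594) as lower in Sca1+ cells, and it called Col2a1 among genes with an array at 100 or more (0.0497) and with a floor of 32 (0.0414). Over all alternatives the adjusted p of both genes reached 0.271.

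The members higher in untreated Sca1+ cells were Col18a1 (1.28), Col7a1 (1.22), Col4a4 (1.09), Col5a3 (1.03), Col12a1 (1.01), Col6a3 (1.01) and Col5a2 (1.00). All of these lie near the 2-fold line. After dox Col18a1 and Col7a1 differed by 0.45 and 0.34, and Col4a4 and Col6a3 were at the floor in both fractions. The other Col12a1 probe set gave -0.23. The count of 7 depended on the processing: it was 4 among genes with an array at 100 or more, 3 with probe sets averaged, 4 with a floor of 32 and 9 with arrays centred on their medians. Centring the arrays moved the median Sca1 difference of all genes without dox from -0.01 to 0.21. The share of higher among called genes moved with it from 48.0% to 70.0%.

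Col9a1 and Col2a1 were lower in Sca1+ cells on the log2 scale by 3.65 (Col9a1) and 2.77 (Col2a1) without dox and by 2.77 (Col9a1) and 2.94 (Col2a1) with dox. The second Col9a1 probe set gave -1.80 without and -2.09 with dox. Col11a1 and Col11a2 differed by less, between -0.76 and -0.29. Cnmd, a cartilage glycoprotein from the chondrocyte list, was also lower in Sca1+ cells, by 3.03 without and 1.74 with dox. The luminal and junctional markers Krt8 and Cldn7 were lower too, Krt8 by 1.69 without and 1.46 with dox and Cldn7 by 1.90 and 2.40. Trp63, a basal transcription factor in the same list of epithelial markers, was higher in Sca1+ cells by 1.36 and 1.08. Of the 8 markers, 1 was 2-fold higher in Sca1+ cells under both conditions, beside 1.08% of all genes. In the other direction 2 were 2-fold lower under both, beside 0.881%. The part of these markers in the differences of Col2a1 and Col9a1 was not tested.

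Col9a3 and Col16a1 lay higher in Sca1+ than in Sca1- cells without dox, by 0.44 and 0.78, and lower with dox, by 1.74 and 1.09. The dox Sca1+ array was the lowest of the 4 for both genes. Col25a1 was the 1 member higher in Sca1+ cells with dox, by at least 1.49, and Col20a1 was lower by 1.11.

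**Figure D3:**
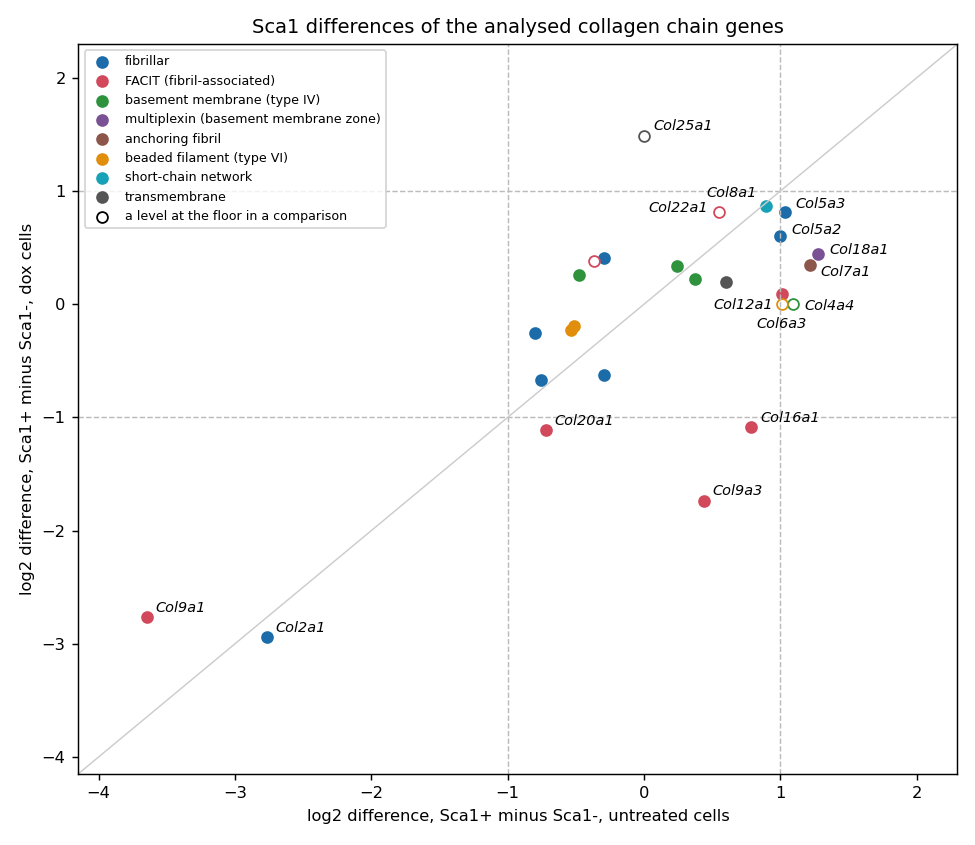
Log2 difference, Sca1+ minus Sca1-, without dox (horizontal axis) and with dox (vertical axis) for each analysed collagen chain gene, coloured by class, with open symbols where a level was at the floor. Col2a1 and Col9a1 stand alone in the lower left corner, while Col9a3 and Col16a1 lie to the right of 0 and below it.

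Genes that modify and fold collagen inside the cell numbered 22, of which 18 were analysed, with median dox differences of 0.10 in Sca1+ and 0.08 in Sca1- cells. In both fractions 2 of the 18 were 2-fold higher and 3 lower, beside the 5.29% and 8.56% of all genes, against which the counts of the next lists are read too. P3h1, a prolyl 3-hydroxylase, and Fkbp14, a prolyl isomerase, were higher after dox in both fractions. P3h1 went from 5.05 to 6.72 in Sca1+ and from 5.36 to 6.87 in Sca1- cells. Crtap, which works in a complex with P3h1, went the other way, from 8.47 to 6.28 and from 8.37 to 6.83. P3h4, needed for lysyl hydroxylation, was lower after dox by 2.99 and 2.06. Serpinh1, the collagen chaperone of the endoplasmic reticulum, was lower by 2.59 and 1.25. Ppib and P4hb, general folding enzymes that also serve collagen, differed by 0.40 or less.

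Of 15 genes for propeptide cleavage and cross-linking, 10 were analysed, with median dox differences of -1.06 and -1.25. Lox, the lysyl oxidase, was the 1 higher gene, at 3.84 and 3.83 untreated and 6.71 and 7.05 after dox. Its relatives Loxl3 and Loxl4 were lower, Loxl3 from 8.83 to 4.76 in Sca1+ and from 9.53 to 7.80 in Sca1- cells. Pcolce2, an enhancer of propeptide cleavage, went from 8.94 to 4.12 and from 7.43 to 4.61, and Pcolce was at the floor on both dox arrays. Tgm2, a transglutaminase, was lower after dox by 1.34 and 1.25 and lower in Sca1+ cells by 1.61 and 1.70. Bmp1, the protease that removes the C-propeptide, differed by 0.39 and 0.21.

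Of 8 genes for degradation and uptake, 5 were analysed, and Mmp8, Mmp1a and Ctsk were at the floor on all arrays. Of the 5, Mmp13 and Mrc2 were higher after dox in both fractions, beside 5.29% of all genes, and 0 were lower, beside 8.56%. Mmp13, a collagenase, went from the floor to 10.58 in Sca1+ and from 3.96 to 10.68 in Sca1- cells. Those were differences of 105-fold in Sca1- and at least 153-fold in Sca1+ cells. Mrc2, a receptor that takes up collagen, left the floor only on the dox arrays, at 5.18 and 4.35. Mmp14 and Mmp2, which also cut collagen, differed by 0.20 or less. Of the 6 analysed collagen receptors none passed 2-fold in both fractions, and the receptor kinase Ddr1 came nearest, at 10.56 and 10.69 untreated and 11.69 and 11.49 after dox. Of the 8 analysed proteins that bind collagen in the matrix, Dcn and Fn1 were higher and Thbs1 and Postn lower in both fractions. Dcn went from the floor to 9.41 in Sca1+ and 8.42 in Sca1- cells, at least 68.0-fold and 34.2-fold. Fn1 was higher by 2.19 and 1.09, Thbs1 lower by 3.89 and 2.62, and Postn lower by 3.05 and 1.68. Sparc, a collagen-binding matrix glycoprotein, differed with Sca1 instead, at 10.07 against 7.90 without dox and 9.79 against 8.61 with dox.

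**Figure D4:**
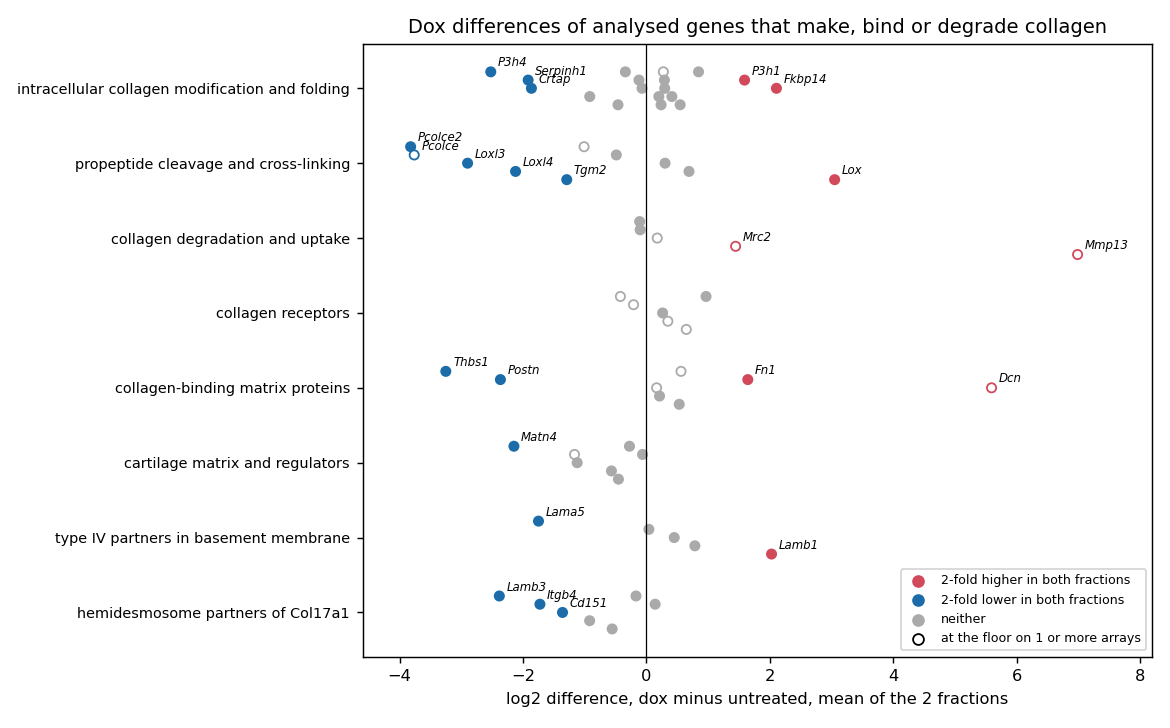
Log2 difference, dox minus untreated, as the mean of the 2 fractions (horizontal axis) for the analysed genes that make, bind or degrade collagen (vertical axis, by list), 1 gene a point. Red points were 2-fold higher and blue points 2-fold lower in both fractions, grey points were neither, and open points were at the floor on 1 or more arrays. In the cleavage and cross-linking list Lox alone is red beside 5 blue points.

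By class, the 7 fibrillar chains had median dox differences of -0.98 in Sca1+ and -0.83 in Sca1- cells, the 4 type IV chains -0.20 and -0.17, the 6 cartilage chains -1.09 and -1.22 and the 2 transmembrane chains 1.01 and 0.46. Of that pair Col25a1 passed the filter only through the dox Sca1+ array. Its difference was 0 with a floor of 32, which lies above all its levels. Col17a1 alone gave 0.52 and 0.92. The fibrillar median covers Col5a2 and Col27a1 above 1.8 in both fractions and Col2a1 below -1.8 in both. Col2a1, Col11a1, Col11a2 and Col27a1 count in both the fibrillar and the cartilage median, so these medians are not separate. The other fibrillar chains analysed, Col5a1, Col5a2 and Col5a3, differed by -0.09, 2.81 and -1.05 in Sca1+ and -0.79, 3.20 and -0.83 in Sca1- cells. No difference between the classes was tested. Of the 26 analysed members, 19 differed 2-fold in at least 1 of the 4 comparisons, beside 28.3% of all genes. The 7 not called were Col4a1, Col4a2, Col5a1, Col6a2, Col17a1, Col19a1 and Col22a1.

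Other probe sets of the same gene were compared where they lay off the floor. Of 34 such pairs behind a 2-fold difference, 29 had the same sign and 16 were also 2-fold. Of the 16 members not analysed, 14 had no probe set off the floor on any array. In the RefSeq order of genes 7 pairs of members were direct neighbours. Col5a2 was 2-fold higher after dox while its neighbour Col3a1 was not analysed, Col6a1 was higher while Col6a2 was lower in the fit, and Col9a1 was lower in the fit while Col19a1 was not called.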

How the data were processed

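The authors deposited log2 expression values for 45101 Affymetrix probe sets on 4 arrays of biotin-labelled RNA. How they were summarised and scaled, and with which software, is not stated in the labels. Of the probe sets, 34958 carried 1 gene symbol in the platform annotation and 932 several, which were not used. Each gene was taken from its probe set with the highest mean. The members and gene lists were chosen with earlier results of these data known. Members analysed were named with their 4 levels, and from other lists the genes 2-fold different in both comparisons of a pair and at most 4 others. Differences and folds were computed from the log2 values, and a difference to a level at the floor is given as at least that size. The additive fit used limma 3.58.1 in R 4.3.3 and tables used Python 3.11.15. With 1 array a group, the number of arrays limits the precision. Whether the fractions of a treatment came from 1 culture is not stated, so p-values may measure technical spread. The 7 alternatives changed the filter, the probe set of a gene, the scaling or the floor.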

Additional observations from a re-analysis of the deposited data

Results flagged for a closer look

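Col9a3 and Col16a1 differed between the fractions in opposite directions with and without dox. Col9a3 was 0.44 higher on the log2 scale in untreated Sca1+ than in untreated Sca1- cells and 1.74 lower in Sca1+ cells after dox, and the change between these differences was -2.17. For Col16a1 the differences were 0.78 and -1.09, a change of -1.87. Each rests on 4 single arrays, and the difference was not tested.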

How the results depend on the processing

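Each group had 1 array, so no replicate block could be fitted. The additive fit, with 1 dox term over both fractions, was the only fit, and dox within a fraction was compared by single differences alone. Of 112 counts of collagen members under the 7 alternatives, 102 stayed within 1.5 times the reported count and 10 moved. Members higher in Sca1+ cells without dox were 4 among genes with an array at 100 or more, 3 with probe sets averaged and 4 with the floor at 32, against 7. Those higher in Sca1+ cells with dox were 0 with that filter and 0 with that floor, against 1. Members higher after dox in both fractions were 3 with arrays centred on their medians and 3 with quantile normalization, against 5. The additive fit (limma) called 1 member lower in Sca1+ cells with the stricter filter, 2 with centred arrays and 1 with the raised floor, against 0. The adjusted p of Col2a1 ranged from 0.000806 to 0.271 over the alternatives and that of Col9a1 from 0.000594 to 0.271. Of 684 single differences 649 kept their side of the 2-fold line, 28 fell under it and 7 passed it, and no called difference changed sign. Differences between low levels near the floor, such as those of Col20a1, Col25a1, Col4a4, Col5a3 and Col6a3, were under 2-fold once values under 32 were set to 32. For Col25a1, Col4a4 and Col6a3 every level was under 32, so the raised floor made their differences 0 by construction. Why other counts moved was not tested.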
